A study of Saccharomyces cerevisiae with 9 samples.

Results

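The endosome to vacuole sorting machinery of the budding yeast Saccharomyces cerevisiae was followed through 37 deletion strains. The strains were taken from a list of named genes, without a cut on a measured value. Earlier results of these data were known when the list was made. It holds 18 genes of the ESCRT complexes and their accessory proteins, 8 of the HOPS and CORVET tethers and 5 of the retromer. The others are 4 endosomal Rab, SNARE and tether partners, and the 2 genes VPS34 and VPS15 of the phosphatidylinositol 3-kinase. Of the 37 strains, 35 had a value on at least 1 array, among 5101 strains that had one. VPS28 and VAM6 had no value on any array, and VPS16 had one only in the heterozygous pool at 450 µM.

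The study grew pools of tagged knockout strains with and without sodium arsenite, a trivalent arsenic salt, and compared the 2 cultures of each array by the DNA tags that mark each strain. In the haploid pool, 6 arrays compared cultures with 0, 100, 200, 400, 800 or 1600 µM arsenite against a control without it. These were MATa spore progeny of the heterozygous pool, grown to confluence at 30 °C on "Magic Marker" plates, which select such haploids. A further 2 arrays held the heterozygous diploid pool, in which only 1 copy of each gene is replaced by kanMX, grown for 10 generations in YPD with 450 or 0 µM arsenite. The last array held haploids made from the same pool after mass transformation with pfd1::TEF1pr-URA3, which removes the prefoldin subunit PFD1, at 5 µM arsenite. On that array the arsenite plates lacked uracil and the control plates contained it, so the effects of uracil and of arsenite cannot be told apart. All pools derived from BY4743 and shared ura3delta0, leu2delta and his3delta1, the segregating alleles lys2delta0 and met15delta0, and can1delta::LEU2-MFA1pr-HIS3 as the selection marker. Strains were grown as mixed pools and each condition has 1 array, so no value has a replicate.

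Values are log2 ratios of the arsenite culture over the control culture, relative to the median strain of the array, so a strain depleted in arsenite has a negative value. The direction is likely rather than stated. It rests on the pfd1 array, where strains of the uracil synthesis genes URA1, URA2, URA4 and URA5 read between -5.23 and -3.98 in the medium without uracil, and on ARR3, the arsenite exporter, which read -6.52 at 800 µM. A strain was called outside the background range when it lay below -1.39 or above 1.37, limits that left out the lowest and the highest 0.5% of all strains on the haploid 0 µM array. The heterozygous range, set on that pool's 0 µM array, ran from -0.87 to 1.13. Between 2508 and 4904 strains had a value on each array. From the disagreement between the 2 tags of a strain, over all strains, the SD of a 1-tag value was 0.376 at 0 µM, 0.396 at 800 µM and 0.479 on the pfd1 array, and that of a 2-tag mean 0.266, 0.28 and 0.339. This error covers tags only and not the spread between cultures. The 1600 µM array stood apart from the others, with a deposited median of 2.99 against -0.09 to 0.12 elsewhere. These medians are of values before the sign was turned, so they read as control over arsenite under the direction taken here. Only 11 of the 37 strains had a value on the 1600 µM array.

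Membrane proteins and newly made hydrolases reach the yeast vacuole through the endosome. The ESCRT complexes gather ubiquitinated membrane proteins and bud them into the endosome as internal vesicles, which the vacuole then degrades. CORVET and HOPS tether endosomes and vacuoles before fusion and share a core of class C subunits, while the retromer carries sorting receptors back to the Golgi. VPS34 makes the lipid phosphatidylinositol 3-phosphate that recruits many of these proteins, and VPS15 is its regulatory kinase.

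At 800 µM, 13 of the 29 sorting strains with a value lay below the background range and 0 lay above it, against 11.8% of all strains below and 7.36% above. Their median was -0.89, where the median of all strains is 0 by construction. The low strains lacked VPS34, BRO1, VPS20, the 3 ESCRT-II subunits, the 3 measured class C core subunits, VPS27, STP22, PEP7 or SRN2. Retromer strains and strains of several late ESCRT factors lay inside the range at this dose. For 5 of the 13, namely SNF8, VPS25, VPS36, PEP5 and VPS33, both tags were read and both were below the range, and the other 8 rest on 1 tag. At 400 µM 3 of 32 were below the range, against 5.75% of all strains, at 200 µM 1 of 34 against 1.53%, at 100 µM 0 of 34 against 0.831%, and at 0 µM 0 of 31 against 0.512%. Above the range lay 0 sorting strains at 0, 100, 200 and 400 µM, against 0.512%, 0.367%, 0.839% and 0.825% of all strains. Scaling each array by its median absolute deviation narrows the widely spread 800 µM array and widens the 0 µM array. With the limits set again on the scaled 0 µM array, and so wider as well, 3 of 29 were below the range, against 2.4% of all strains.

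**Figure D1:**
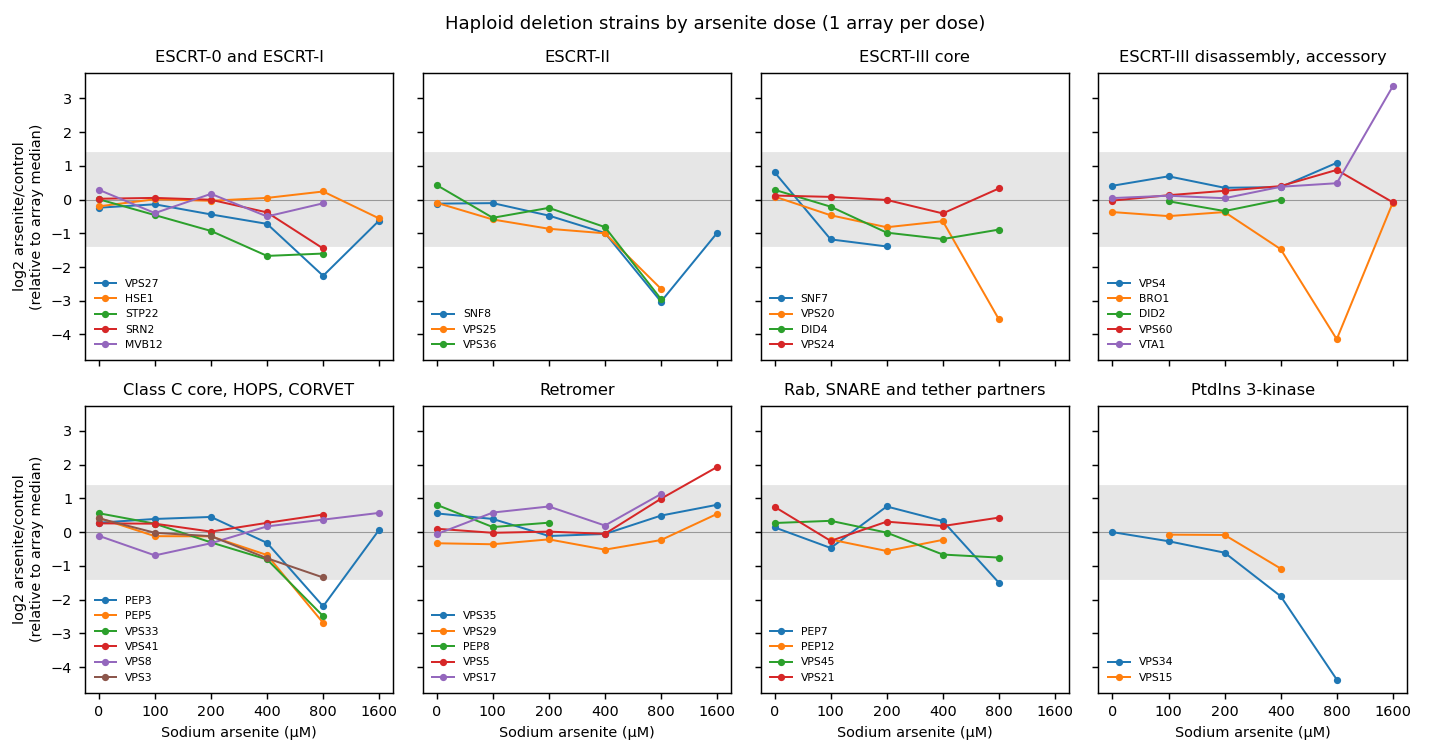
Value of each sorting strain (y axis, log2 arsenite over control relative to the array median) against the sodium arsenite dose of the haploid arrays (x axis, µM, equal steps), 1 line per strain and 1 array per dose; the grey band runs from -1.39 to 1.37. ESCRT-II, class C core, BRO1, VPS20 and VPS34 strains leave the band between 400 and 800 µM or before, whereas all measured retromer strains stay inside it up to 800 µM.

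For the haploid pool the test was a straight line through each strain's values over the 5 dose steps from 0 to 800 µM, fitted with limma over 3731 strains. Of 29 sorting strains measured at all 5 doses, 3 fell and 0 rose at a limma adjusted p under 0.05, against 2.89% of all strains that fell and 0.214% that rose. The median slope of the 29 was -0.30, against 0.01 for all strains, and 20 of the 29 slopes were negative, against 47.7% of all slopes. The strains that fell lacked STP22, VPS33 and VPS3. At an unadjusted p under 0.05, 15 of the 29 had a lower and 1 a higher slope, against 15.9% and 12.0% of all strains. Over the alternative fits the limma adjusted p ran from 0.0129 to 0.99 for STP22, from 0.000458 to 0.99 for VPS33 and from 0.00294 to 0.99 for VPS3. Quantile normalization ended the calls of STP22 (0.474) and VPS3 (0.0706), and scaling by the median absolute deviation that of STP22 (0.175). The reported fit called 108 strains of the series lower and 8 higher, against 43 and 32 with quantile normalization and 145 and 49 with median absolute deviation scaling.

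In 12 of the 13 strains below the range at 800 µM the largest downward step was that from 400 to 800 µM, against 63.7% of the 386 strains of the series below it and measured at all 5 doses. By 400 µM the 13 had reached a median of 29.9% of their change from 0 to 800 µM, and the 386 a median of 47.2%. Choosing strains by their 800 µM value itself favours a large last step, so these figures are a description only. The exception was STP22, which had reached its full change by 400 µM. With dose taken on the linear scale in place of equal steps, limma called 14 of the 29 lower and 1 higher, against 14.8% and 12.7% of all strains. The 14 were STP22, VPS33, VPS3, VPS27, SRN2, SNF8, VPS25, VPS36, VPS20, BRO1, PEP3, PEP5, VPS45 and VPS34, and the strain called higher lacked VPS60. With the 800 µM array left out of that fit, an alternative added after the data were seen, 4 were called lower, namely STP22, VPS33, VPS3 and VPS34, and 0 higher, against 3.63% and 0.291% of all strains.

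ESCRT-0 recognises ubiquitinated cargo at the endosome. The strain lacking VPS27, its lipid-binding subunit, read -0.24, -0.14, -0.44, -0.72 and -2.26 from 0 to 800 µM and -0.62 at 1600 µM. It was outside the range only at 800 µM (slope -0.46 ± 0.13 SE, limma adjusted p = 0.0994). The strain lacking HSE1, the partner of VPS27 in the complex, read -0.20, 0.01, -0.03, 0.05 and 0.24 over the same 5 doses and -0.56 at 1600 µM. The 2 subunits of ESCRT-0 thus lay on opposite sides of the median at 800 µM, a difference that was not tested.

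ESCRT-I binds ESCRT-0 and passes cargo on. STP22 encodes Vps23, its ubiquitin-binding subunit, and the strain read 0.01, -0.46, -0.93, -1.67 and -1.60 from 0 to 800 µM. It was the ESCRT strain with the lowest value at 400 µM, and it fell with dose (slope -0.44 ± 0.07 SE, limma adjusted p = 0.0421). Leaving out the 0, 100, 200 or 400 µM array ended that call (adjusted p = 0.0871, 0.175, 0.0651 and 0.0723), and leaving out the 800 µM array did not (0.0432). SRN2, which encodes the Vps37 subunit, read 0.02, 0.05, 0.00, -0.38 and -1.45 at these doses. MVB12, a small subunit that stabilises ESCRT-I, read 0.29, -0.40, 0.17, -0.50 and -0.11 and was never outside the range. STP22 rests on 1 tag at every dose, and SRN2 and MVB12 on 1 tag at 800 µM.

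ESCRT-II links ESCRT-I to the ESCRT-III polymer, and its 3 strains were close together at 400 and 800 µM. The strain lacking SNF8 read -0.12, -0.10, -0.48, -0.99 and -3.02 from 0 to 800 µM and -0.99 at 1600 µM. That lacking VPS25 read -0.09, -0.59, -0.86, -1.0 and -2.64, and that lacking VPS36, the ubiquitin- and lipid-binding subunit, 0.43, -0.54, -0.24, -0.81 and -2.95. Their tags agreed in sign at 800 µM, at -2.64 and -3.41 for SNF8, -2.91 and -2.38 for VPS25, and -2.84 and -3.06 for VPS36. All 3 were within the lowest 4.30% of strains on that array. None passed the test of the slope (limma adjusted p from 0.0652 for VPS25 to 0.0807 for SNF8).

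ESCRT-III forms the filaments that close the vesicle neck. VPS20, the subunit that ESCRT-II activates first, read 0.09, -0.46, -0.82, -0.64 and -3.55 from 0 to 800 µM (slope -0.75 ± 0.22 SE, limma adjusted p = 0.101), with 1 tag at 800 µM. SNF7, the main filament subunit, read 0.81 at 0 µM, -1.18 at 100 µM and -1.39 at 200 µM, and had no value at higher doses. At 200 µM it lay at the edge of the range, as the only sorting strain below it, on 1 tag. DID4, which encodes the Vps2 subunit, read 0.29, -0.21, -0.98, -1.17 and -0.89, and its partner VPS24 read 0.12, 0.08, -0.01, -0.41 and 0.33. Neither DID4 nor VPS24 was outside the range at any dose.

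Among the factors that act on the finished filament, BRO1 stood alone. BRO1 recruits the ubiquitin hydrolase that strips cargo and also acts on SNF7. Its strain read -0.37, -0.49, -0.37, -1.47 and -4.14 from 0 to 800 µM, where it was the 44th lowest of 3956 strains, and -0.09 at 1600 µM. It had 1 tag with a value, and its slope did not pass (-0.85 ± 0.24 SE, limma adjusted p = 0.0994). VPS4, the ATPase that disassembles ESCRT-III, read 0.41, 0.69, 0.35, 0.37 and 1.09. VTA1, the activator of VPS4, read 0.04, 0.12, 0.04, 0.38 and 0.48, and VPS60, which binds VTA1, read -0.03, 0.13, 0.26, 0.40 and 0.88. These 3 strains thus read above the median at every dose from 100 to 800 µM, inside the range. At 1600 µM VTA1 read 3.36, above the range, and VPS60 -0.08. DID2, another regulator of VPS4, read -0.05, -0.34 and 0.00 at 100, 200 and 400 µM, its only haploid values.

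**Figure D2:**
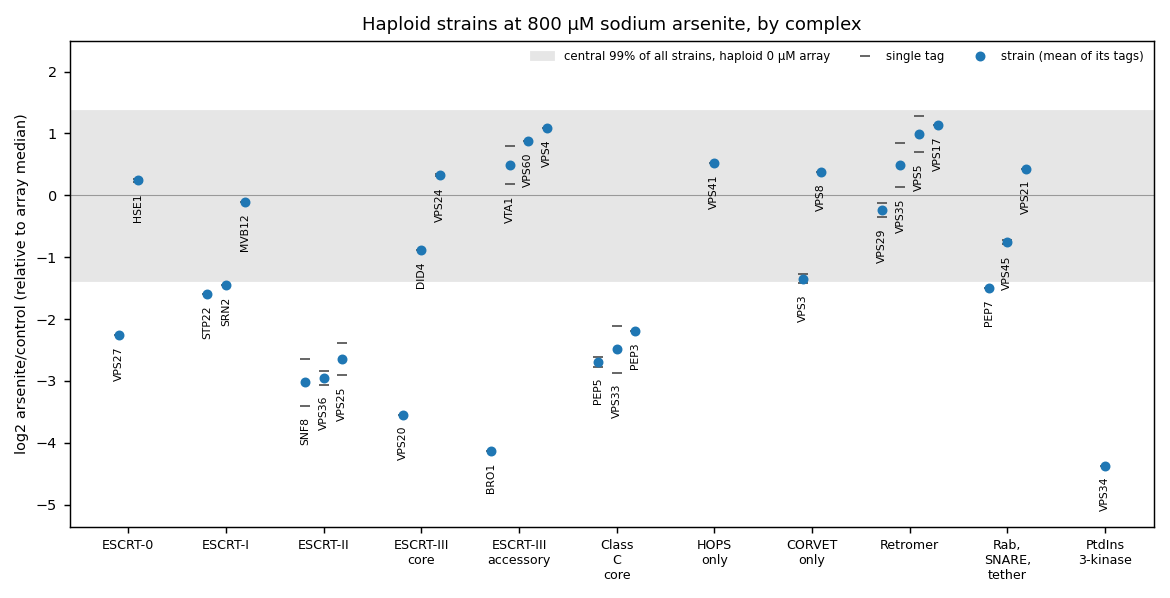
Values at 800 µM sodium arsenite (y axis, log2 arsenite over control relative to the array median) of the 29 measured sorting strains by complex; dots are strains, dashes are their single tags, and the grey band runs from -1.39 to 1.37. VPS34 at -4.37 and BRO1 at -4.14 are lowest, the 3 ESCRT-II strains lie between -3.02 and -2.64, and the 4 measured retromer strains between -0.23 and 1.13.

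The class C core is common to HOPS and CORVET, and its 3 measured strains read between -2.69 and -2.20 at 800 µM. VPS33, the SNARE-binding subunit, read 0.56, 0.25, -0.30, -0.81 and -2.49 from 0 to 800 µM and fell (slope -0.72 ± 0.12 SE, limma adjusted p = 0.0435). Leaving out any 1 of the 5 arrays ended that call, with adjusted p from 0.0524 without 0 µM to 0.188 without 100 µM (0.0671 without 200 µM, 0.0702 without 400 µM and 0.0613 without 800 µM). The 0 µM value of VPS33 rests on 1 tag. Its 2 tags differed in sign at 100 µM (-0.04 and 0.54) and at 200 µM (-0.85 and 0.24). Both were below 0 at 400 µM (-1.05 and -0.57) and at 800 µM (-2.87 and -2.11). PEP5, the Vps11 subunit, read 0.42, -0.12, -0.12, -0.68 and -2.69 (adjusted p = 0.0718 with limma). PEP3, the Vps18 subunit, read 0.28, 0.39, 0.45, -0.32 and -2.20, and 0.07 at 1600 µM. All 3 were inside the range at every dose but 800 µM.

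Subunits that belong to only 1 of the tethers were inside the range at every dose. VPS41 of HOPS, which contacts the vacuolar Rab, read 0.26, 0.25, 0.01, 0.28 and 0.52 from 0 to 800 µM. VPS8 of CORVET, which contacts the endosomal Rab, read -0.11, -0.69, -0.33, 0.17 and 0.37, and 0.57 at 1600 µM. VPS3 of CORVET read 0.41, -0.02, -0.12, -0.78 and -1.34 and fell (slope -0.43 ± 0.06 SE, limma adjusted p = 0.0372), with tags at -1.42 and -1.27 at 800 µM. This value lay just inside the background range. The call for VPS3 was lost without the 0, 100, 400 or 800 µM array (adjusted p = 0.0695, 0.155, 0.0855 and 0.135) and kept without the 200 µM array (0.0459). VAM6, the other HOPS subunit, had no value.

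Retromer strains lay inside the range at every dose from 0 to 800 µM. VPS35, VPS29 and PEP8 form the cargo-binding trimer, and VPS5 and VPS17 are the sorting nexins that coat the tubule. VPS29 read -0.33, -0.36, -0.21, -0.52 and -0.23 from 0 to 800 µM, the lowest of the complex at 800 µM, and VPS17 read -0.06, 0.58, 0.76, 0.20 and 1.13, the highest. At 800 µM VPS35 read 0.49 and VPS5 0.99, and the median of the 4 was 0.74. From 0 to 400 µM the strains read between -0.52 (VPS29) and 0.81 (PEP8), and PEP8 had no value past 200 µM. At 1600 µM VPS5 read 1.93, above the range, VPS35 0.81 and VPS29 0.54. Over all sorting strains at that dose 0 of 11 were below the range and 2 above it, VPS5 and VTA1, against 3.99% and 14.5% of all strains. The strain lacking VAM10, whose gene overlaps VPS5 in the reference annotation, read 0.80 at 800 µM and 1.54 at 1600 µM. None of the 4 slopes passed limma's test (adjusted p from 0.269 for VPS17 to 0.979 for VPS29).

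The endosomal fusion partners were mixed. VPS45, which regulates endosomal SNAREs, read 0.27, 0.34, -0.01, -0.66 and -0.76 from 0 to 800 µM, with tags of -0.72 and -0.79 at 800 µM (slope -0.30 ± 0.07 SE, limma adjusted p = 0.0655). PEP7, a tether that binds phosphatidylinositol 3-phosphate, read 0.14, -0.47, 0.76, 0.33 and -1.50, the last on 1 tag. Its other tag, which had no value there, read between 1.02 and 1.69 on the 4 arrays that measured it, including 1.12 in the heterozygous pool without arsenite. VPS21, the endosomal Rab of the Rab5 type, read 0.75, -0.26, 0.31, 0.18 and 0.43. PEP12, the endosomal SNARE, had haploid values at 100, 200 and 400 µM only, of -0.22, -0.56 and -0.23.

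VPS34 was the lowest of all sorting strains at 800 µM. It read 0.00, -0.27, -0.61, -1.90 and -4.37 from 0 to 800 µM, the last as the 41st lowest of 3956 strains, on 1 tag. Its slope was the steepest of the 29 (-1.04 ± 0.20 SE) and missed the threshold with a limma adjusted p of 0.0585. VPS15 read -0.07, -0.08 and -1.08 at 100, 200 and 400 µM, with both tags below 0 at 400 µM, and had no value at 0 or 800 µM.

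Values were missing at 800 µM for 5 of the 34 sorting strains measured at 100 µM, namely SNF7, DID2, PEP8, PEP12 and VPS15, against 4.45% of all strains. Why a tag has no value is not given in the sources used here.

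In the heterozygous diploids, which lose 1 copy of the gene, 0 sorting strains passed the limits used, and few strains of the series did. The difference between 450 and 0 µM was past 1 in 0 of 32 strains in either direction, against 1.94% of all strains lower than -1 and 1.09% higher than 1. On the 450 µM array itself 0 of 35 lay below the heterozygous range and 0 above it, against 2.41% and 0.918% of all strains, and on the 0 µM array 0 of 32 lay outside it in either direction, against 0.511% of all strains on either side. The median difference of the 32 was 0.01. The tag error of a difference of 2-tag means was 0.361 if the tag errors of the 2 arrays are independent. A tag bias shared by both arrays would cancel in the difference, so 0.361 is not a direct measure of its error. VPS17 had the highest difference, at 0.55 with 450 µM and -0.25 with 0 µM, and VPS29 the lowest, at -0.48 with 450 µM and 0.20 with 0 µM. With tag set 1 only, the difference of VPS17 was past 1, at 1.02, against 0.931% of all strains higher than 1. Among the strains far down as haploids, BRO1 read -0.27 with 450 µM and -0.38 with 0 µM, VPS20 0.08 and 0.13, and SNF8 0.08 and -0.42. VPS34 read -0.50 with 450 µM and -0.45 with 0 µM, with 8.24% and 6.9% of strains lower, and was the lowest sorting strain on the 0 µM array. Its 450 µM value averaged tags at 0.00 and -0.99. The tag at -0.99, the one behind the haploid values, was below the heterozygous range, which was set on strain values and not on single tags. That tag read -0.48 with 0 µM, and the other -0.42. With limits set on tag set 2 alone, 1 of 27 sorting strains lay below at 450 µM, against 2.43% of all strains. With tag set 1 alone, 1 of 33 lay above, against 0.956%. Dose and medium differ between these pools, so the values stand side by side without a comparison.

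**Figure D3:**
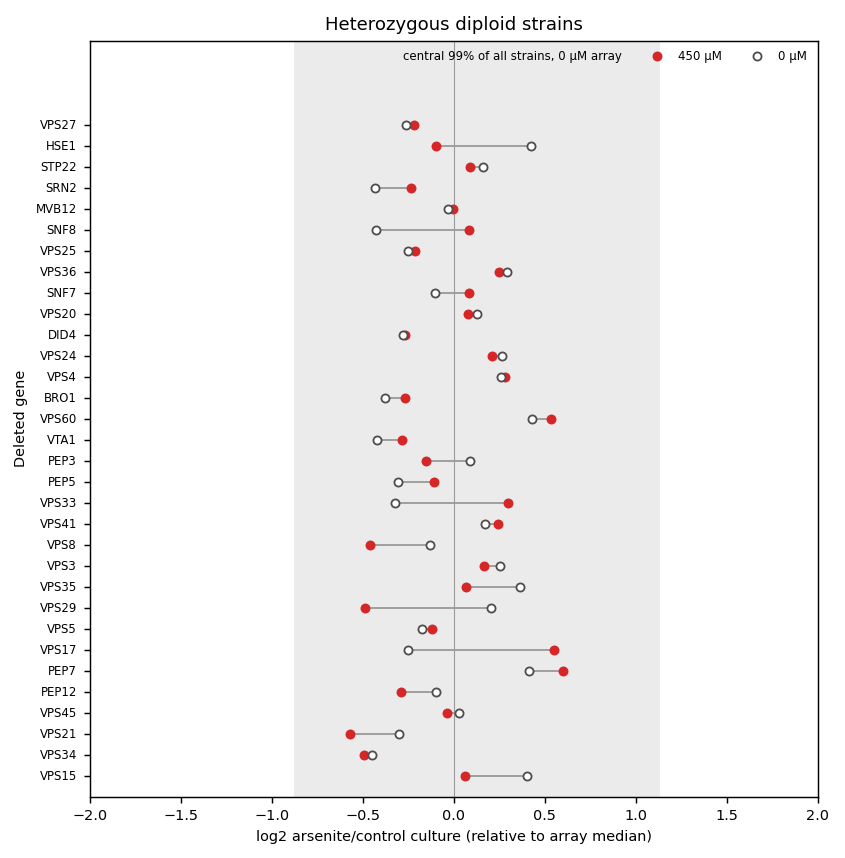
Heterozygous diploid strains (1 row per deleted gene) with their value on the 450 µM array (filled dots) and on the 0 µM array (open dots), as log2 of the arsenite culture over its control culture relative to the array median; the grey band is the heterozygous range, -0.87 to 1.13. All dots lie inside the band, and the longest lines are those of VPS17 and VPS29.

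On the pfd1 array, of 34 sorting strains, 8 read lower than -1 and 1 higher than 1, against 7.7% and 8.63% of all strains. Below the haploid range were 4, against 4.47% of all strains, and above it 0, against 5.64%. The median of the 34 was -0.28. The 8 were STP22 of ESCRT-I at -1.86, SNF7 at -1.66, VPS15 at -1.54, SNF8 at -1.40, VPS36 at -1.35, VPS20 at -1.12, VPS25 at -1.11 and VPS29 of the retromer at -1.04. All measured ESCRT-II strains were thus among them, with SNF7 and VPS20.

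Tags of the ESCRT-II strains read -0.80 and -2.01 for SNF8, -1.63 and -1.07 for VPS36, and -1.26 and -0.96 for VPS25. The VPS20 tags read -0.87 and -1.38 and the VPS29 tags -1.25 and -0.83, whereas STP22, SNF7 and VPS15 had 1 tag each. PEP12 averaged -0.93 from tags at 0.10 and -1.97, the widest tag disagreement of a sorting strain on this array.

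Several strains that were below the range at 800 µM in plain haploids were not low here. BRO1 read 0.59, higher than 83.5% of strains, and the class C core strains read -0.29 for PEP3, -0.06 for PEP5 and 0.13 for VPS33. DID4 was the strain higher than 1, at 1.36 on 1 tag, while VPS24, VPS4, VPS60 and VTA1 read between -0.15 and 0.26. Of the 13 strains below the range at 800 µM, 5 were lower than -1 on the pfd1 array, against 26.8% of the 462 strains of the series below the range at 800 µM. The pools differ in dose, medium and the PFD1 deletion, and no difference between them was tested.

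**Figure D4:**
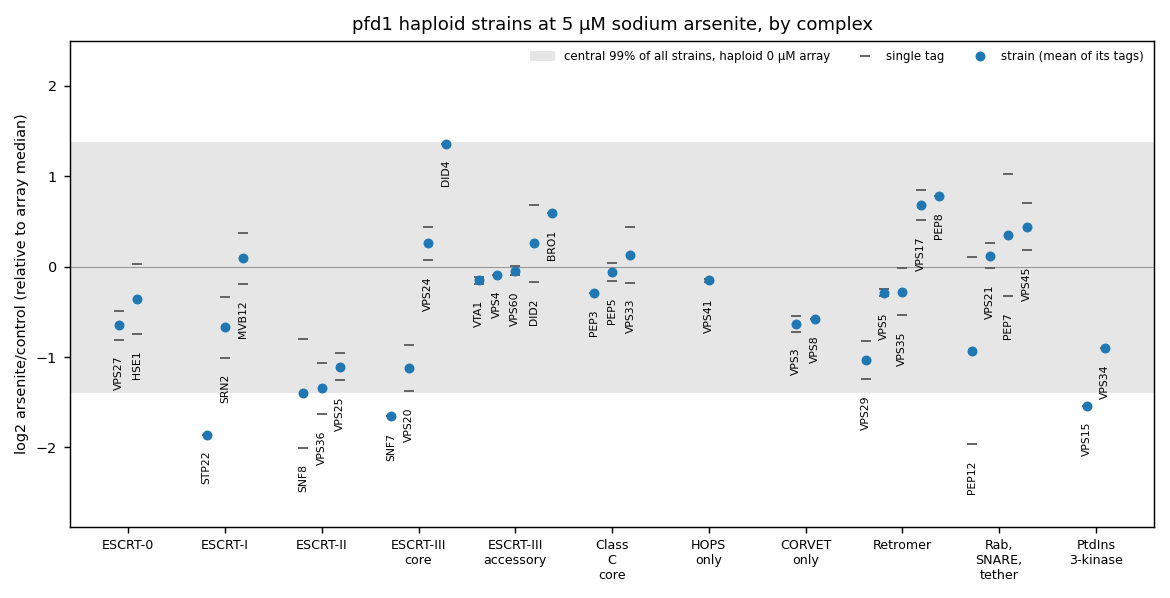
Values of the 34 measured sorting strains in pfd1 haploids at 5 µM arsenite without uracil over the control with uracil (y axis, log2 relative to the array median), by complex; dots are strains, dashes are their single tags, and the grey band is the haploid range, -1.39 to 1.37. The ESCRT-II strains lie between -1.40 and -1.11 and the class C core strains between -0.29 and 0.13.

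Further genes of the route gave a background for these values. VPS30 and VPS38, which with VPS34 and VPS15 form the endosomal kinase complex, read 0.58 and 0.26 at 800 µM, and ATG14, the autophagy subunit, read 0.23. None of the 3 was outside the range or passed the slope test (limma adjusted p from 0.257 to 0.394). Of 5 genes for phosphatidylinositol 3,5-bisphosphate, the lipid made from the product of VPS34, VAC7 read -1.68 at 400 µM and -2.43 at 800 µM, below the range at both doses. VAC14, in the same complex, read 0.55 and 1.11.

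The 4 strains of AP-3, the adaptor of a route from the Golgi to the vacuole that bypasses the endosome, read between -1.79 and -1.0 at 800 µM. APL5 was below the range and the other AP-3 strains were not. Of 10 measured Golgi to endosome strains 0 were below the range, and RIC1 was above it at 1.67. Of 7 vacuole fusion strains, which include the Rab YPT7 and the SNARE VAM3, and of 8 sorting nexin strains outside the retromer, 0 lay below or above the range. Of all strains, 11.8% lay below the range at 800 µM and 7.36% above it. For lists this short, 0 is close to those shares. MUK1, an exchange factor for the endosomal Rab, read 2.47 at 800 µM and 1.18 at 0 µM. Over all 10 lists of further genes, 0 slopes passed limma's threshold, against 2.89% of all strains that fell and 0.214% that rose. YPT6 was nearest (slope 0.25 ± 0.05 SE, limma adjusted p = 0.0626).

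The Rim101 pathway, which senses alkaline pH, uses ESCRT-I, ESCRT-II, SNF7 and VPS20 as its platform but not BRO1, whose place is taken by RIM20. Its 8 strains read between -1.12 and -0.12 on the pfd1 array, where 50.0% of all strains read below 0. Of the 8, 0 were below the range there, against 4.47% of all strains. RIM20 read -1.12 there and RIM13, the protease of the pathway, -1.0. In plain haploids all 8 read below 0 at 400 µM, from -1.03 (RIM20) to -0.13 (RIM9), where 49.5% of all strains did. The 7 measured at 800 µM read between -0.81 and -0.04. At that dose 0 of 4 vacuolar hydrolase strains and 0 of 3 further ESCRT partner strains were outside the range. Of all strains 11.8% lay below it and 7.36% above. On the pfd1 array VAC7 was below the range at -1.49. Above it were the hydrolase strains PRB1 at 1.55 and CPS1 at 1.47, and GGA2 at 1.42, against 5.64% of all strains.

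**Figure D5:**
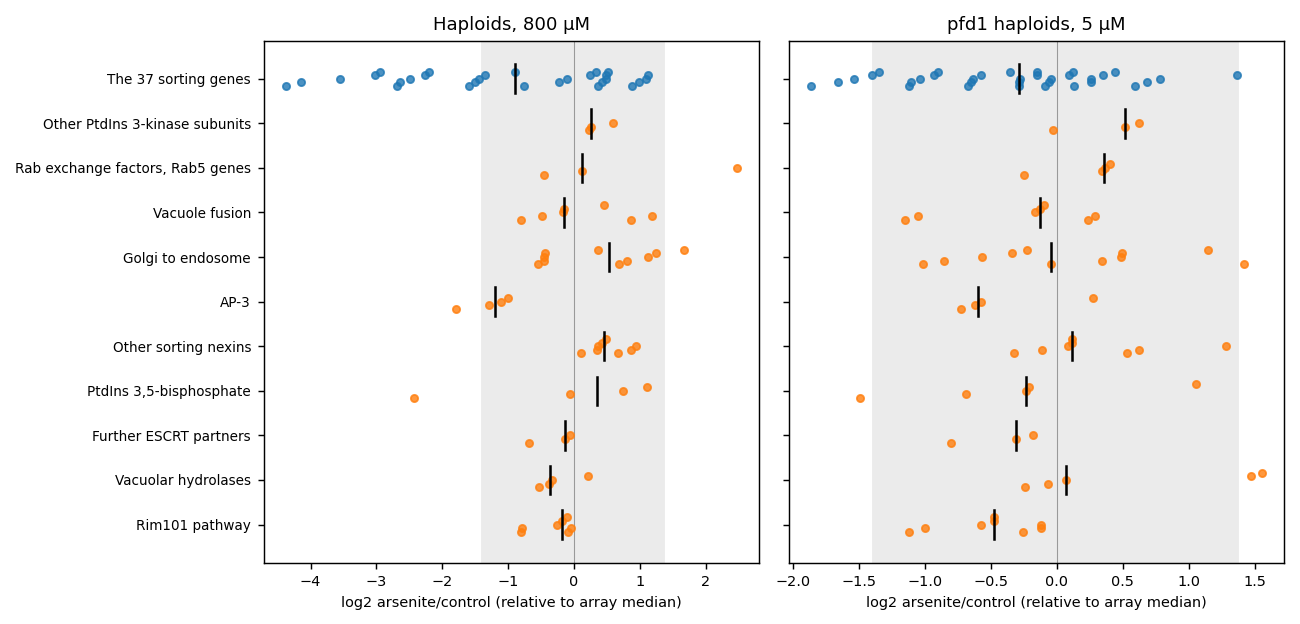
Values (x axis, log2 arsenite over control relative to the array median) of the 37 sorting genes and of 10 lists of further genes of the route, in haploids at 800 µM (left) and in pfd1 haploids at 5 µM (right); dots are strains, black bars are medians and the grey band is the haploid range. At 800 µM the 13 sorting strains below the band, VAC7 at -2.43 and APL5 of AP-3 at -1.79 are the dots to its left, and the Rim101 strains lie between -0.81 and -0.04.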

How the data were processed

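Per the labels, asymmetric PCR with labelled primers copied each strain's UpTag and DnTag, and control cultures carried Cy5 and arsenite cultures Cy3 on all 9 arrays. The deposited values are log ratios of the 2 channels per tag probe, taken as log2 because base 10 would exceed a scanner's range. Had they been natural logs, all printed log2 values would need multiplying by the same constant. How the authors centred, normalized and filtered the ratios, and which channel they divided by, is not stated in the labels or headers. Without a dye swap a tag's dye bias stays in each single-array value. Arrays correlated between 0.05 and 0.80 over probes. All correlations were positive, but one as low as 0.05 cannot show that 2 arrays share a direction.

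The sign was turned to arsenite over control. Of 9727 probes with a value, 8765 name 1 gene in the platform annotation and 962 none, and 63 belong to the sorting strains. All 37 symbols matched the reference table (assembly R64), which served for names and overlap only. A strain is the mean of its tags, centred on the array's median strain. Tag sets 1 and 2 follow probe position, since the annotation does not name UpTags and DnTags.

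The haploid slope over equal dose steps came from lmFit and eBayes of limma 3.58.1 under R 4.3.3 (two-sided, Benjamini-Hochberg over all strains, threshold 0.05), tested on simulated data first. Dose order is its only replication, so a bent response counts as scatter. Other values have no test. Full values are given for sorting strains past the threshold, lowest or highest of a complex at 800 µM, or past 1 on the heterozygous difference or the pfd1 array, and for further members of each complex. The sorting genes, gene lists, and the choice to leave the 1600 µM array out of the test were made with earlier results of these data known.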

Additional observations from a re-analysis of the deposited data

How the results depend on the processing

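The 3 lower slopes among 29 sorting strains depended on the processing. Limma called 5 lower after scaling by the median absolute deviation, 1 with tag set 1 only (of 21), 1 with 2 or more tags on every array (of 9), 14 on linear dose, and 0 with the 1600 µM array (of 11), with a trended and robust prior, or when arsenite arrays were contrasted with 0 µM. Limma's unadjusted p was under 0.05 in these last fits for 0 lower and 3 higher (256 and 418 of all 2507), 15 lower and 1 higher (626 and 492 of 3731), and 1 lower and 0 higher sorting strains (36 and 20 of 3731). Leaving out 1 array gave 0 to 1. With the 1600 µM array the median slope of the 11 strains left was 0.0467. The -0.30 of the reported fit was over 29 strains, so these 2 medians cover different sets of strains. In the reported fit the middle slope of the same 11 strains was that of VPS29, at 0.003. Quantile normalization called 3, of which VPS33 was also called in the reported fit, beside PEP5 and VPS34. Using the same tags on every array, an alternative added after the data were seen, called STP22, VPS3 and VPS33 again. Below the background range, scaling by the median absolute deviation left 3 of 29 at 800 µM (2.4% of all strains) and 0 of 34 on the pfd1 array (0.976%). For these 2 counts the limits were set again on the scaled 0 µM array, which the scaling widened, so both values and limits changed. With limits at the 1st and 99th percentile the pfd1 array had 7 of 34 below (6.87%) and 1 above (7.09%). Lower than -1 on the pfd1 array were 5 of 31 with tag set 1 (7.95% of all strains) and 5 of 27 with tag set 2 (8.13%). No paired analysis was possible because each group holds 1 array. Over all strains, 108 lower and 8 higher calls became 0 and 0 with the 1600 µM array, the trended prior or the contrast with 0 µM, 554 and 474 on linear dose, 66 and 3 with tag set 2, 45 and 3 with 2 or more tags, and 7 to 108 lower and 0 to 8 higher with 1 array left out. With 1 array per dose, precision is limited by that number.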
